A study of Mus musculus with 13 samples.

Results

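The early response of the mouse heart to doxorubicin was described across 10410 genes, by comparing 5 hearts of doxorubicin-injected mice with 5 hearts of mice injected with phosphate-buffered saline (PBS, the control). These 10 arrays were chosen by the sample names in the labels, out of 13 arrays in the series. The genes are those detected on at least 3 of the 13 arrays, out of 19057 gene symbols that the array annotation holds. All animals were male C57BL/6 mice aged 8 to 10 weeks, a common laboratory strain, and the labels name no engineered allele. Doxorubicin or PBS was given into the abdominal cavity and the hearts were taken 20 hours later, while neither the dose nor the time of day is given in the labels. The other 3 mice had received sAcvR2B-Fc, a soluble activin receptor, 48 hours before doxorubicin, and they enter here only through the shared estimate of the spread. Total RNA of each heart was labelled and hybridised to an Illumina mouse expression array, on which each gene is read by the brightness of a bead-bound probe.

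Doxorubicin is an anthracycline that inserts itself into DNA and traps topoisomerase II on it, which leaves broken DNA. Broken DNA activates p53, a transcription factor that switches on genes of cell cycle arrest, repair and cell death. Nucleic acids that reach the wrong compartment of a cell are sensed and lead to the release of type I interferon, which induces genes that carry a short promoter sequence, the interferon-stimulated response element (ISRE). The heart is known as a site of anthracycline toxicity, with mitochondria, iron, calcium handling and the contractile apparatus of its muscle cells among the processes studied.

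The deposited tables did not name the same arrays. The values below follow the sample names of the table that was not normalized, which the labels also give for each sample. When each column of the series matrix was set against the arrays of that table, 1 array had a Spearman correlation of at least 0.999994 with it and every other array at most 0.903779. In 8 of the 13 cases the matching array carried another sample's name, and for 6 of these another group's. Both tables put the same 3 arrays in the control group and the same 3 in the doxorubicin group. Which table is right cannot be told from the sources used here. A gene known to respond to the drug shows the difference. Cdkn1a, which p53 induces and whose product p21 halts the cell cycle, read 7.16 to 8.59 (log2) on the control arrays and 9.66 to 10.89 on the doxorubicin arrays, without overlap. Under the series matrix names the same gene read 7.16 to 11.13 on the arrays then named control and 8.28 to 10.89 on those then named doxorubicin. No gene was called under those names (limma; 164 genes had an unadjusted p under 0.05, and 178 on the series matrix's own values), nor did any gene pass on the arrays grouped alike by the tables (732 at an unadjusted p under 0.05). On those arrays, 3 in each group, the differences were close in size to those with 5: Cdkn1a stood at 2.72 against 2.50, S100a9 at 2.56 against 2.79 (log2) and the median of the interferon response list at 0.84 against 1.01. They are part of the same arrays, so this is a description. Every direction below therefore rests on the names of the table that was not normalized.

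The tissue label was checked against marker genes. All 12 tested markers of ventricular heart muscle cells were detected on all 10 arrays, and their summed signal ran from 143962 to 171566 on the control arrays and from 137846 to 167889 on the doxorubicin arrays. Of 12 listed markers of T and natural killer cells 1 was tested, of 8 B cell markers 2, and of 10 adipocyte markers 1. Raw median signals ran from 101.5 to 136.3 per array, 15989 to 17514 probes per array were detected, and the arrays correlated with each other at 0.97 to 0.993 over the tested genes. The series' design counts mice, so an array is taken as 1 mouse. The p-values measure only the spread between these arrays, and their number limits the precision of every value below.

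Most of the response was small. A gene is called here when its adjusted p from limma is under 0.05, and 17 genes were called higher after doxorubicin (0.163% of those tested) and 8 lower (0.0768%). At an unadjusted p under 0.05 there were 622 higher and 653 lower genes. A measure that needs no model is whether all 5 doxorubicin arrays lay above, or all below, all 5 control arrays. That held for 153 genes on the higher side (1.47%) and for 144 on the lower side (1.38%), and all 25 called genes were among these 297. The 5th and 95th percentiles of the log2 differences were -0.33 and 0.35, and their median was 0.

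Large differences were more often higher than lower after doxorubicin. Beyond a log2 difference of 1 there were 44 higher and 10 lower genes, of which 21 and 3 had groups apart. Beyond 0.5 the numbers were 235 and 162, with 63 and 37 apart, and beyond 0.25 they were 1021 and 1050, with 111 and 118 apart. Quantile normalization makes the arrays' distributions equal, so a shift shared by all genes would not show. With the arrays scaled to equal medians instead, the median over all genes was 0.126 and the calls split into 34 higher and 1 lower, of which 13 were among the 25.

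The share of genes with groups apart was highest among bright genes. The genes were divided by mean signal into 4 classes of equal size, in which the share with groups apart was 1.5% (dimmest), 2.96%, 3.07% and 3.88% (brightest). The 5th and 95th percentiles of the differences were -0.36 and 0.38 in the dimmest class and -0.29 and 0.26 in the brightest. The median SD among control arrays was 0.281, 0.224, 0.158 and 0.117 in the 4 classes. None of the called genes lay in the dimmest class.

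**Figure D1:**
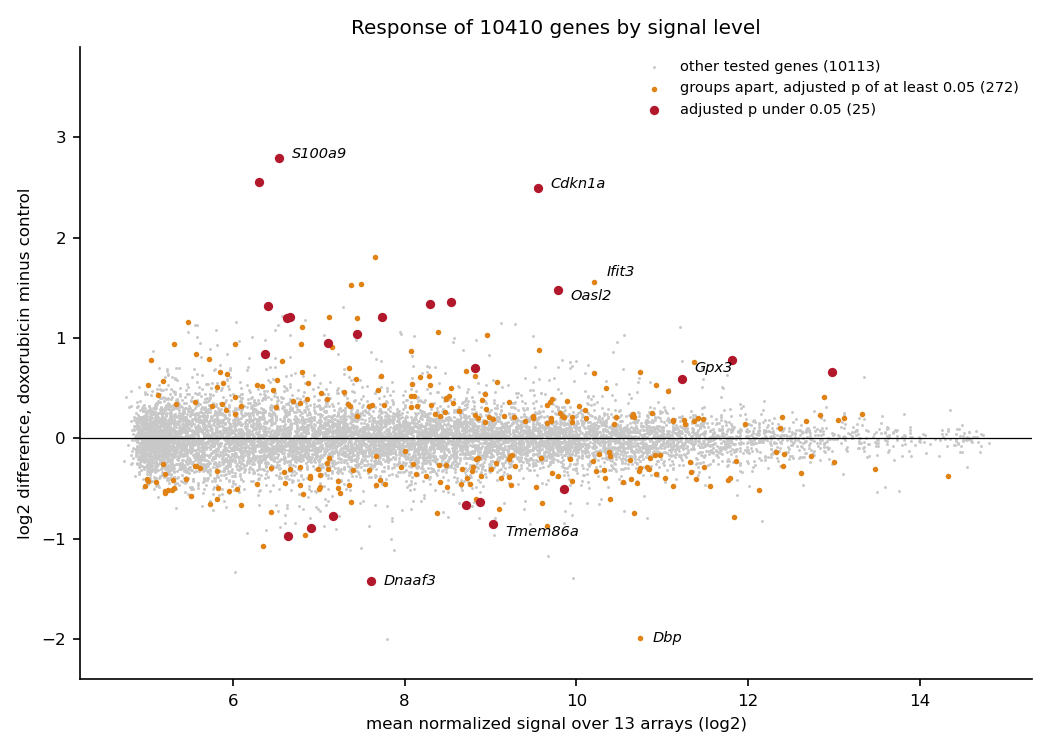
Each point is 1 of 10410 genes, placed by its mean normalized signal over 13 arrays (x axis, log2) and its difference between doxorubicin and control (y axis, log2). Red points are the 25 called genes and orange points are the further genes whose 5 doxorubicin arrays lay all above or all below the 5 control arrays, and differences beyond 1 lie mostly above the line at 0.

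Other probes for the called genes had the same sign where such probes passed the filter. Of 15 other probes for 11 called genes, all 15 had the sign of the probe used, with a median ratio of 0.83 to its difference. Over the genes with groups apart the same sign was found for 165 of 192 other probes (85.9%), and over all tested genes for 3566 of 5466 (65.2%). Some other probes had much smaller differences (p adjusted over all passing probes). Ifitm1 had 0.04 on its other probe (adjusted p = 0.949) against 0.78, Usp18 0.53 (adjusted p = 0.312) against 1.36, and Oas1g 0.52 (adjusted p = 0.166) against 1.32. Of 2 other Dhx58 probes, 1 stood at 0.48 (adjusted p = 0.431) and 1 at 1.35 (adjusted p = 0.0155), against 1.20.

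The largest rises were those of the calprotectin subunits and of Cdkn1a. Values are given as log2 normalized signals for replicates 1 to 5 in order. S100a9, a subunit of the calcium-binding protein calprotectin that neutrophils carry in bulk, read 5.18, 4.59, 4.97, 4.91 and 4.66 on the control arrays and 7.64, 6.90, 7.57, 8.53 and 7.61 on the doxorubicin arrays. It was detected on 1 control array and on all 5 doxorubicin arrays, and the groups lay more than 1 log2 unit apart (2.79 ± 0.23, adjusted p = 7.9e-05). The partner subunit S100a8 read 5.37, 4.60, 4.47, 4.69 and 4.80 on the control arrays and 7.49, 6.66, 6.91, 8.31 and 7.32 on the doxorubicin arrays (2.55 ± 0.27, adjusted p = 0.000993). Cdkn1a read 8.59, 7.53, 8.28, 8.28 and 7.16 on the control arrays and 10.88, 9.66, 10.89, 10.54 and 10.34 on the doxorubicin arrays (2.50 ± 0.32, adjusted p = 0.00606). Doxorubicin replicate 2 was the lowest of its group for each of these 3 genes.

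Genes known to be induced by interferon made up much of the called set. Trim34a, of the tripartite motif family of antiviral ubiquitin ligases, read 6.59, 6.69, 6.50, 6.71 and 6.59 on the control arrays and 7.63, 7.02, 7.99, 7.58 and 7.58 on the doxorubicin arrays (0.95 ± 0.15, adjusted p = 0.0202). Ifitm1, a membrane protein that hinders virus entry, read 11.52, 11.32, 11.15, 11.40 and 11.37 on the control arrays and 12.41, 11.81, 12.44, 12.08 and 11.93 on the doxorubicin arrays (0.78 ± 0.14, adjusted p = 0.035), and the paralog Ifitm3 read 12.84, 12.69, 12.31, 12.59 and 12.50 on the control arrays and 13.39, 13.10, 13.39, 13.16 and 13.18 on the doxorubicin arrays (0.66 ± 0.12, adjusted p = 0.035). The groups of these genes did not overlap, and the controls spread by 0.08 to 0.20 (SD). The steeper rises of Oasl2, Usp18, Oas2, Oas1g, Dhx58 and Gbp10 ranged from 1.20 to 1.48 on the log2 scale. The Oas1 and Ifitm genes have close paralogs, whose transcripts the probes may not separate fully.

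Further called rises were in genes of other kinds. Osmr, the receptor subunit for the cytokine oncostatin M, had the tightest controls of the called set and read 8.36, 8.32, 8.32, 8.46 and 8.46 on the control arrays and 9.25, 8.66, 9.39, 8.98 and 9.14 on the doxorubicin arrays (0.70 ± 0.12, adjusted p = 0.0348). C4a, a copy of complement component C4, read 7.26, 6.95, 6.42, 6.31 and 6.95 on the control arrays and 7.63, 7.92, 8.08, 7.86 and 7.59 on the doxorubicin arrays (1.04 ± 0.18, adjusted p = 0.0335). Its near-identical copy C4b read 6.64 to 7.32 on the control arrays and 7.42 to 7.83 on the doxorubicin arrays without passing the test over all genes (0.70 ± 0.14, adjusted p = 0.0585), and the probes may not tell the copies apart.

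Mmp3, a secreted protease that cuts extracellular matrix, read 6.05, 5.52, 5.62, 6.13 and 5.49 on the control arrays and 6.81, 6.36, 6.51, 6.61 and 6.74 on the doxorubicin arrays (0.84 ± 0.16, adjusted p = 0.0453), and its other probes stood at 1.01 and 1.37. Gpx3, a secreted glutathione peroxidase, read 11.04, 10.89, 10.73, 10.95 and 10.80 on the control arrays and 11.57, 11.25, 11.44, 11.62 and 11.51 on the doxorubicin arrays (0.59 ± 0.10, adjusted p = 0.0333). It had a small difference, a fold of 1.51, but lay among the brightest genes with an SD of 0.12 in the control group and 0.14 in the doxorubicin group. Cnksr1, a scaffold of Ras signalling, read 7.36, 6.52, 6.77, 7.05 and 7.27 on the control arrays and 8.38, 8.10, 8.52, 8.04 and 7.98 on the doxorubicin arrays (1.21 ± 0.18, adjusted p = 0.0136), and it was 1 of 2 called rises in which doxorubicin replicate 2 was not the lowest of its group.

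All 8 called falls were under 1.5 on the log2 scale. Dnaaf3, an assembly factor for the dynein motors of cilia, read 8.55, 8.16, 8.42, 8.30 and 8.45 on the control arrays and 6.68, 7.72, 6.30, 7.01 and 7.04 on the doxorubicin arrays (-1.43 ± 0.20, adjusted p = 0.011). Tmem86a, a lysoplasmalogenase that cleaves ether lipids, read 9.46, 9.85, 9.58, 9.52 and 9.52 on the control arrays and 8.64, 9.23, 8.68, 8.39 and 8.73 on the doxorubicin arrays (-0.85 ± 0.15, adjusted p = 0.0335). Ctf1 encodes cardiotrophin, a cytokine of the gp130 family that acts on heart muscle cells, and read 7.18, 7.60, 7.25, 7.69 and 7.51 on the control arrays and 6.35, 6.93, 6.22, 6.48 and 6.79 on the doxorubicin arrays (-0.89 ± 0.15, adjusted p = 0.0312). The groups did not overlap for any of these 3 genes, and replicate 2 was the doxorubicin array nearest to the controls in each.

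Igdcc4, an immunoglobulin superfamily membrane protein, read 8.94, 9.13, 9.16, 9.00 and 9.15 on the control arrays and 8.25, 8.56, 8.26, 8.39 and 8.60 on the doxorubicin arrays (-0.66 ± 0.10, adjusted p = 0.0136). Rtn2, a reticulon that shapes the endoplasmic reticulum, read 9.87, 10.14, 10.17, 10.27 and 10.17 on the control arrays and 9.66, 9.44, 9.62, 9.63 and 9.74 on the doxorubicin arrays (-0.51 ± 0.09, adjusted p = 0.035). It was the smallest called difference, 1.42-fold, and the exception among the falls in that doxorubicin replicate 2 was its lowest value. The water channel gene Aqp4 read 6.95 to 7.48 on the control arrays and 6.01 to 6.36 on the doxorubicin arrays, Prrx1, a homeobox factor of mesenchyme, 7.42 to 7.80 and 6.55 to 7.11, and Prkg1, the cGMP-dependent protein kinase, 9.13 to 9.43 and 8.62 to 8.88.

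**Figure D2:**
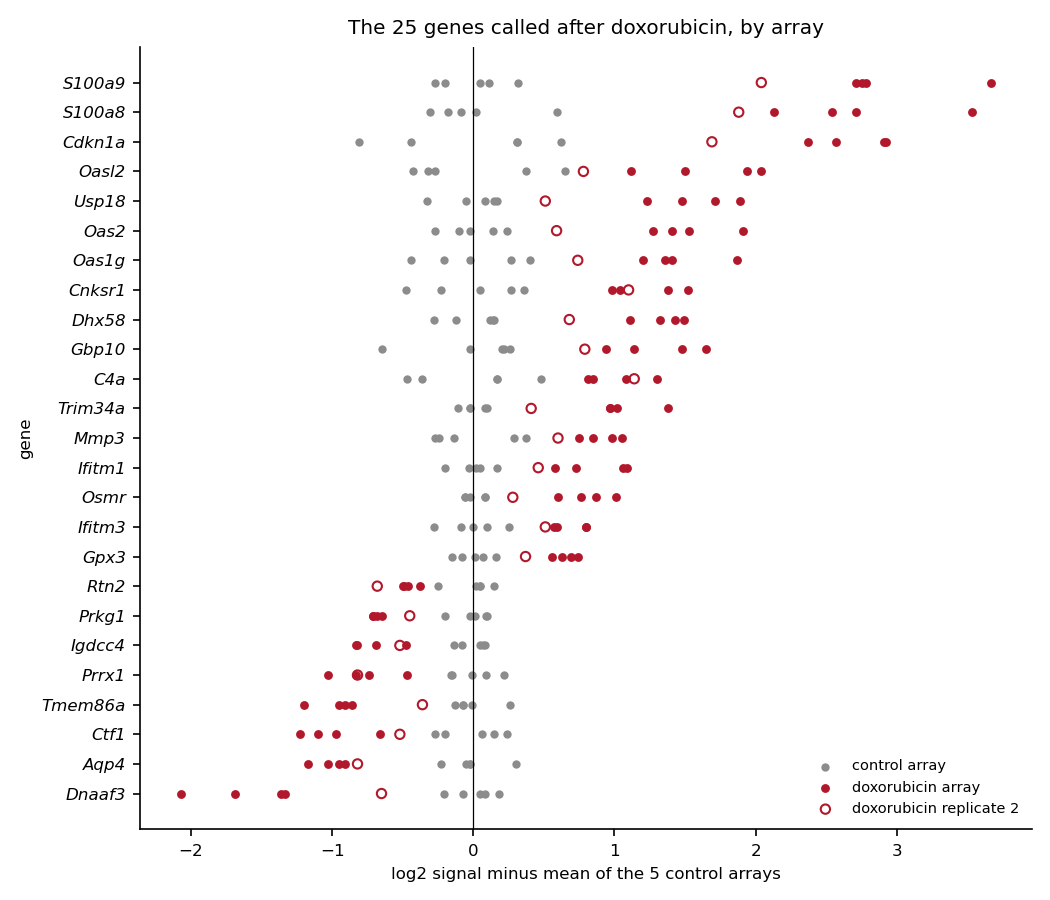
Each row is 1 of the 25 called genes and each point 1 array, placed by its log2 signal minus the mean of the 5 control arrays (x axis). Grey points are control arrays, filled red points doxorubicin arrays and the open red circle doxorubicin replicate 2, which was the lowest doxorubicin array in 15 of the 17 rises and the highest in 5 of the 8 falls.

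Under the series matrix names all 25 called genes kept their direction, but with sizes of 0.09 to 0.94 (median 0.30) in place of a median of 0.97, and none was called. Of the 297 genes with groups apart, 262 kept their direction there, against 6757 of all 10410 genes. Both sets of names share 3 control and 3 doxorubicin arrays, so a shared direction is in part fixed by these arrays.

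The interferon response had the highest median of the 42 lists examined. Of its 34 genes 26 were tested, 24 had a positive difference and the median was 1.01, while 49% of all tested genes were positive around a median of 0. There were 7 called rises (Oasl2, Usp18, Oas2, Oas1g, Dhx58, Ifitm1 and Ifitm3), and 13 of the 26 had groups apart on the higher side. The shares over all tested genes were 0.163% and 1.47%, and on the lower side 0.0768% and 1.38%. They are the background for the counts of called and apart genes in every list below. The list's median per array lay between -0.26 and 0.18 on the control arrays and was 1.12, 0.43, 1.45, 0.98 and 1.10 on the doxorubicin arrays. Doxorubicin replicate 2 was the lowest doxorubicin array in 20 of the 26 genes and lay inside the control range in 9. The list's median was 0.23 under the series matrix names.

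Several members of the list had groups apart without a call. Irf7, the factor that amplifies interferon production, read 6.72, 6.59, 6.26, 6.72 and 6.57 on the control arrays and 8.58, 7.02, 8.99, 8.19 and 7.77 on the doxorubicin arrays (1.54 ± 0.30, adjusted p = 0.052). Ifit3, an antiviral protein with tetratricopeptide repeats, read 9.59, 9.76, 8.61, 9.46 and 9.45 on the control arrays and 11.38, 9.81, 11.70, 10.84 and 10.93 on the doxorubicin arrays (1.55 ± 0.31, adjusted p = 0.0585). Isg15, a ubiquitin-like modifier that Usp18 removes from proteins, read 6.61, 6.85, 6.27, 6.50 and 6.28 on the control arrays and 7.82, 6.90, 8.75, 7.48 and 7.59 on the doxorubicin arrays (1.21 ± 0.26, adjusted p = 0.0877). The groups did not overlap for these 3 genes, although none of them passed the test over all genes with all arrays in the fit.

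Ifit2 (1.15 ± 0.26, adjusted p = 0.108) and Mx2, a dynamin-like GTPase that blocks viruses (1.12 ± 0.22, adjusted p = 0.052), had values of doxorubicin replicate 2 inside the control range. The members with a negative difference were Ifi27 (-0.14) and Zbp1 (-0.11). With median scaling they stood at 0.01 and 0.04, and at -0.12 and -0.09 after the all-gene median was taken off. Both were named here after their values were seen.

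The ISRE is known to have the core GAAANNGAAA, and the promoters of these genes were searched for this sequence on both strands, from 250 bases before to 50 bases after the start of the gene (RefSeq sequences, GRCm38.p6). Of the tested genes 8423 had a promoter in the table and 307 of these held a match (3.64%). Among genes with groups apart on the higher side 17 of 123 held a match (13.8%), and among those apart on the lower side 2 of 109 (1.83%). In the interferon response list the count was 10 of 17 (58.8%). Of the 12 called rises with a promoter in the table, Ifitm3, Oas1g and Trim34a held a match. Matches can overlap each other, and a match is a description of the letters, not evidence of a bound factor.

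The stretches that hold the matches are shown for 5 of these genes, each 5′ to 3′ on the strand of the gene, with the matches in capitals, to show where the element lies in genes that read higher after doxorubicin. Matches past the gene's start are shown with at most 30 bases.
Ifit3 (chr19:34583353-34583436, plus strand): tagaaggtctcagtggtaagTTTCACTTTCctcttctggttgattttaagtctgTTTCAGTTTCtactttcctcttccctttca
Isg15 (chr4:156200855-156200916, minus strand): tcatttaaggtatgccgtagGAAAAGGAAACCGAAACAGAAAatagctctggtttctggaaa
Oas1g (chr5:120887614-120887651, minus strand): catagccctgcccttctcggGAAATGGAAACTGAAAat
Ifitm3 (chr7:141010715-141010743, minus strand): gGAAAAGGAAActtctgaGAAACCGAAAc
Trim34a (chr7:104244457-104244486, plus strand): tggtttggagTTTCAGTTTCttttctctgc
They are credited to RefSeq, GRCm38.p6. The Ifit3 stretch holds 2 matches on the opposite strand, between bases -156 and -113 counted from the start. In Isg15 there are 3 overlapping matches between -78 and -57, and in Oas1g 2 overlapping matches between -18 and -3. The matches of Ifitm3 and Trim34a lie just past the start. The log2 differences of these 5 genes were 1.55, 1.21, 1.32, 0.66 and 0.95.

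Genes close to the interferon response in function had smaller positive differences. Among interferon-inducible GTPases, which attack the vacuoles of pathogens, all 10 tested members of 14 had a positive difference (median 0.72) and 1 was called, Gbp10 (1.20 ± 0.22, adjusted p = 0.046). Over all tested genes the share called higher was 0.163%. Gbp3 read 8.51 to 9.40 on the control arrays and 9.21 to 10.49 on the doxorubicin arrays (1.01 ± 0.24, adjusted p = 0.118). Ifi47 read 6.73, 6.66, 6.16, 5.51 and 5.22 on the control arrays and 7.32, 6.45, 8.00, 7.39 and 7.23 on the doxorubicin arrays (1.22 ± 0.32, adjusted p = 0.143). On doxorubicin replicate 2 the list's median was 0, at the control level, against 0.63 to 1.33 on the other doxorubicin arrays, and under the series matrix names the difference was 0.01.

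Antigen presentation had medians of opposite sign for its class I and class II routes. Of 15 class I genes 12 had a positive difference (median 0.28), none was called, and Psmb9, a subunit of the immunoproteasome, had groups apart (0.67 ± 0.20, adjusted p = 0.177). H2-T23 read 9.08 to 9.35 in controls and 9.25 to 10.21 after doxorubicin (0.59 ± 0.17, adjusted p = 0.158). Of 7 tested class II genes 6 had a negative difference (median -0.51) and none was called. H2-Ab1, a chain of the class II molecule, read 10.87, 10.62, 10.26, 10.60 and 10.52 on the control arrays and 9.79, 10.19, 9.03, 9.49 and 10.52 on the doxorubicin arrays (-0.77 ± 0.22, adjusted p = 0.175), and H2-DMb1, which loads peptides onto it, read 6.61, 6.23, 6.47, 6.34 and 6.06 on the control arrays and 5.76, 5.85, 5.74, 5.66 and 6.14 on the doxorubicin arrays (-0.51 ± 0.12, adjusted p = 0.119). Doxorubicin replicate 5 reached the control level for H2-Ab1, which left the groups overlapping. The difference between the routes was not tested. Under the series matrix names the medians were -0.03 for class I and -0.35 for class II.

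The chemokine and complement lists held no called gene. Ccl12, a mouse chemokine that attracts monocytes, read 7.67, 7.08, 7.35, 6.26 and 5.78 on the control arrays and 8.66, 7.89, 9.06, 8.74 and 8.83 on the doxorubicin arrays (1.81 ± 0.36, adjusted p = 0.0605), and Ccl6 and Ccl9 had differences of 0.94 ± 0.21 (adjusted p = 0.108) and 1.14 ± 0.27 (adjusted p = 0.119), while the median over 15 chemokine genes was -0.08. The groups of Ccl12 and Ccl6 were apart, as were those of 1.47% of all tested genes on the higher side. Of 11 complement genes 9 had a positive difference (median 0.33) and none was called. The called gene C4a, described above, was not on this list. C4b and Masp1, a protease of the lectin pathway, had groups apart (Masp1 8.80 to 9.35 against 9.45 to 9.82, 0.56 ± 0.12, adjusted p = 0.0969). The complement median was -0.01 under the series matrix names.

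The gp130 and STAT3 list, which mixes ligands, receptors and kinases with downstream genes, and the NF-kB list gave no common direction. Over 20 genes of the gp130 and STAT3 axis the median was 0.07, with Osmr called higher and Ctf1 called lower. Serpina3n, a protease inhibitor of the acute phase, read 8.05, 7.57, 7.75, 7.59 and 7.57 on the control arrays and 8.79, 8.32, 9.27, 8.91 and 8.53 on the doxorubicin arrays (1.06 ± 0.24, adjusted p = 0.0987) with groups apart. Lrg1, another acute phase gene, went the other way (-0.66 ± 0.19, adjusted p = 0.175). Of 16 genes of NF-kB signalling and adhesion 8 were positive and 8 negative (median 0.02), among them Relb, a subunit of NF-kB (-0.66 ± 0.17, adjusted p = 0.143), and Icam1, a ligand for leukocyte integrins (0.40 ± 0.13, adjusted p = 0.208).

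Among markers of immune cells the called genes were the calprotectin subunits. The neutrophil list had 6 tested of 12 listed markers, all 6 with a positive difference (0.02 to 2.79, median 0.57). Of the 12, 4 were detected on some control array and 7 on some doxorubicin array. S100a8 and S100a9 were detected on 1 control array each, so they passed the filter through arrays of doxorubicin-treated mice. The signs and the median are thus partly fixed by the filter and add no support. The list's median per array ran from -0.23 to 0.23 on the control arrays and from 0.48 to 0.97 on the doxorubicin arrays. None of the 6 was detected on all 10 arrays, and Cxcr2, Ngp, Ltf, Mmp8 and Il1r2 were detected on none. The summed signal of the tested neutrophil markers ran from 175 to 249 on the control arrays and from 405 to 932 on the doxorubicin arrays. The sum adds signals off the log scale and includes S100a8 and S100a9, so it largely restates their rise. Csf3r, Lcn2, Mmp9 and Retnlg differed by 0.46, 0.68, 0.02 and 0.47. Retnlg, a granulocyte secreted protein, was detected on no control array and on 2 doxorubicin arrays, with no bound on its fold. In whole-heart RNA, more cells of a type and more RNA per cell cannot be told apart.

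Of 14 macrophage and monocyte markers 11 were tested and 6 had a positive difference (median 0.01), with summed signals of 2211 to 3683 in controls and 2796 to 3434 after doxorubicin. Fcgr1, an Fc receptor that interferon also induces, had groups apart (0.84 ± 0.18, adjusted p = 0.0838), and Lyve1, a marker of resident macrophages and lymphatic endothelium, read 6.63 to 8.03 against 7.66 to 9.08 (1.04 ± 0.27, adjusted p = 0.143). Prox1, a transcription factor of lymphatic endothelium, differed by 0.19 ± 0.10 (adjusted p = 0.481). Itgam was detected on no array. The dendritic markers Itgax, Flt3, Cd209a, Xcr1 and Clec9a were detected on none of the 10 arrays either. The part of these cells in the class II and interferon results was not tested.

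**Figure D3:**
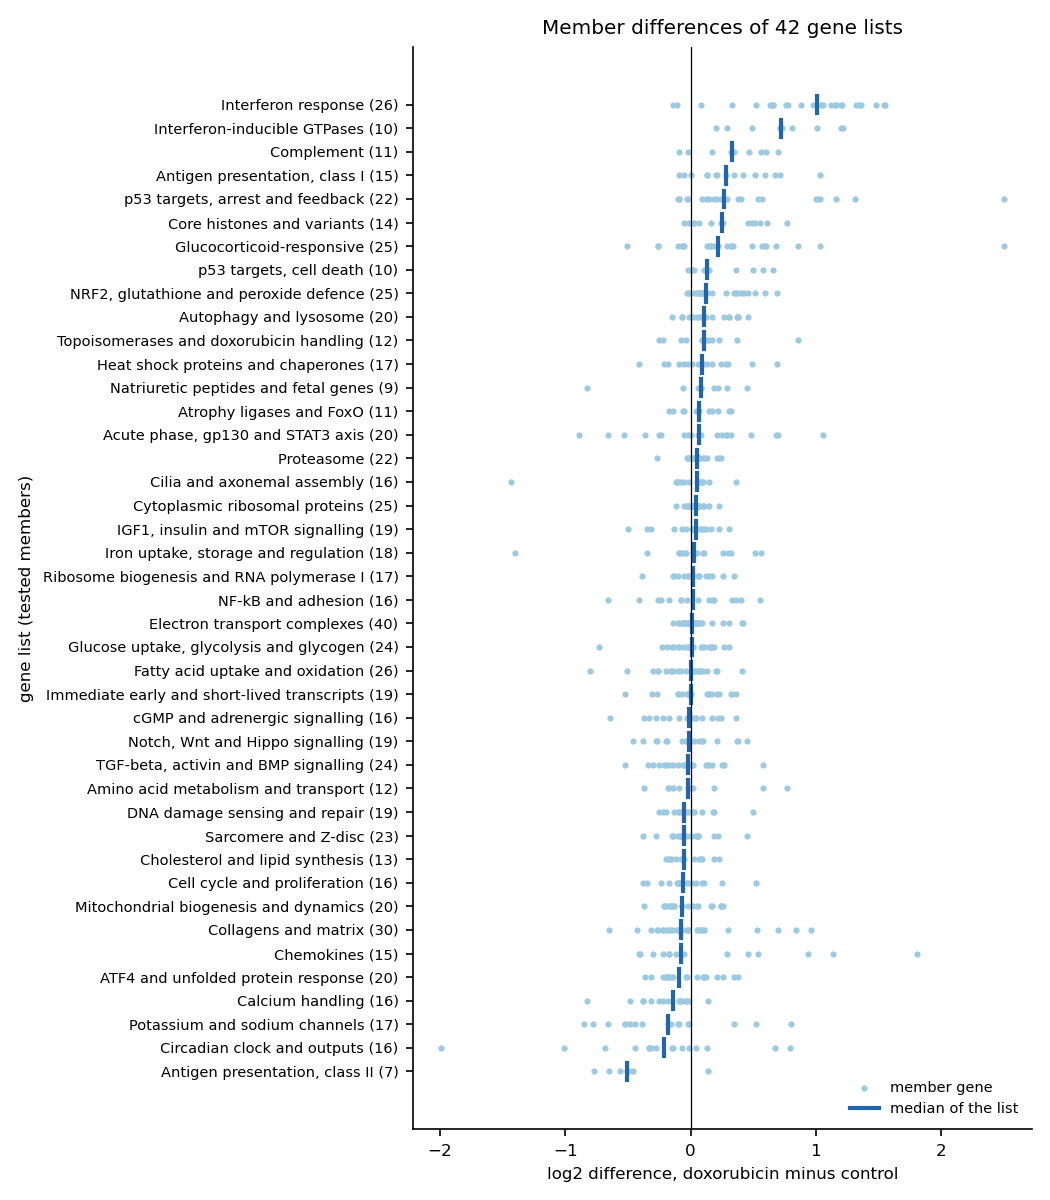
Each row is 1 of 42 gene lists with its number of tested members, ordered by median, and each pale point is 1 member gene placed by its log2 difference between doxorubicin and control (x axis). Dark bars are list medians, which run from -0.51 for class II antigen presentation to 1.01 for the interferon response and lie within 0.15 of 0 for most other lists.

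Among targets of p53 the called gene was Cdkn1a. Of 22 tested genes of arrest and feedback 17 had a positive difference (median 0.27), 1 was called and 4 had groups apart on the higher side. Over all tested genes 0.163% were called higher and 1.47% had groups apart on that side. Among these 4 was Gtse1 at 1.16, whose other probes stood at -0.04 and 0.35. Gtse1 was detected on no control array and on 4 doxorubicin arrays. It passed the filter through arrays of doxorubicin-treated mice and adds no support to this count. Phlda3, a p53 target that restrains the kinase Akt, read 6.56, 6.23, 6.09, 6.27 and 6.93 on the control arrays and 8.14, 6.84, 8.09, 7.87 and 7.70 on the doxorubicin arrays (1.31 ± 0.25, adjusted p = 0.052), and control replicate 5 just exceeded doxorubicin replicate 2. Ddit4, an inhibitor of mTOR that p53 and glucocorticoids both induce, read 8.45, 8.37, 8.65, 8.33 and 7.94 on the control arrays and 9.54, 9.04, 9.94, 9.66 and 8.69 on the doxorubicin arrays (1.03 ± 0.25, adjusted p = 0.125) with groups apart. Dcxr, a carbonyl reductase, read 7.16 to 7.60 against 7.31 to 9.01 (1.02 ± 0.26, adjusted p = 0.143). The list's median on doxorubicin replicate 2 was -0.01, against 0.29 to 0.45 on the other 4 doxorubicin arrays.

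Cell death targets of p53 had a median of 0.13 over 10 tested genes, with none called, and a median of -0.04 under the series matrix names. Ei24 had groups apart, at 10.19 to 10.47 on the control arrays and 10.60 to 11.30 on the doxorubicin arrays (0.66 ± 0.17, adjusted p = 0.143). Fas, the death receptor, differed by 0.58 ± 0.21 (adjusted p = 0.271), and Bbc3, which encodes the protein PUMA, by 0.50 ± 0.22 (adjusted p = 0.38). Aen, a nuclease, was detected on no control array and on 4 doxorubicin arrays, at least 1.03-fold higher.

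Repair genes had no call. Over 19 genes of damage sensing and repair the median was -0.05 and none had groups apart, with Prkdc, the catalytic subunit of the DNA-dependent protein kinase, at 0.50 ± 0.16 (adjusted p = 0.204) and Parp1, a sensor of strand breaks, at -0.20 ± 0.09 (adjusted p = 0.405). Over 12 genes of topoisomerases and doxorubicin handling the median was 0.11. The leading member there was Xdh, xanthine dehydrogenase, which read 9.84, 9.60, 9.41, 10.08 and 10.25 on the control arrays and 11.09, 9.75, 11.12, 10.69 and 10.81 on the doxorubicin arrays (0.86 ± 0.23, adjusted p = 0.152).

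Histone genes leaned upward without a call. Of 14 tested histone genes 12 were higher by sign (median 0.25). The linker histone gene H1f2 read 12.93, 12.98, 12.88, 13.17 and 12.98 on the control arrays and 13.97, 12.74, 14.02, 13.60 and 13.65 on the doxorubicin arrays (0.61 ± 0.21, adjusted p = 0.234), and H4c9 read 7.33, 7.17, 7.24, 7.18 and 7.25 on the control arrays and 8.08, 7.06, 8.92, 7.99 and 7.99 on the doxorubicin arrays (0.77 ± 0.27, adjusted p = 0.244). In both, 4 doxorubicin arrays lay above all controls and replicate 2 below all controls. Histone genes have near-identical copies, so which copy a probe reads is uncertain. Over 16 cell cycle genes the median was -0.06, and Mcm7 and Mcm6, partners in the replicative helicase, had opposite signs (0.52 ± 0.16 and -0.38 ± 0.15, adjusted p = 0.189 and 0.306).

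Over 19 immediate early genes the median was 0, with the smallest p-value for Klf2 (0.36 ± 0.13, adjusted p = 0.258).

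Genes of the circadian clock had differences of both signs. The transcription factor Dbp, a direct output of the clock, read 11.06, 12.11, 10.66, 11.92 and 13.07 on the control arrays and 9.76, 9.77, 10.48, 8.73 and 10.12 on the doxorubicin arrays (-1.99 ± 0.52, adjusted p = 0.143), with groups apart but an SD of 0.94 among controls. Nr1d1, a repressor in the clock's second loop, read 8.19, 8.22, 7.57, 8.83 and 8.93 on the control arrays and 7.12, 7.86, 7.45, 7.05 and 7.21 on the doxorubicin arrays (-1.01 ± 0.32, adjusted p = 0.206). Npas2, which acts in the positive arm, was detected on no control array and on 4 doxorubicin arrays (0.67 ± 0.20, adjusted p = 0.18, at least 1.25-fold higher). Of 16 tested clock genes 12 had a negative difference (median -0.21), and none was called. Under the series matrix names the median was 0.11 and Dbp differed by -0.05.

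Of 25 glucocorticoid-responsive genes 18 had a positive difference (median 0.22), and the 1 called was Cdkn1a, which is also a p53 target. The list's median was 0.46, 0.04, 0.51, 0.04 and 0.11 on doxorubicin replicates 1 to 5 and -0.27 to 0.11 on the control arrays. Only replicates 1 and 3 thus lay above the controls. Cebpb, a transcription factor of the acute response, read 10.61 to 11.54 against 11.04 to 11.99 (0.59 ± 0.20, adjusted p = 0.238).

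The contractile and energy genes of the heart muscle stayed close to 0 in these lists. The median was -0.05 over 23 sarcomere genes, -0.05 over 12 ventricular markers and 0.01 over 40 genes of the electron transport complexes, whose differences ran from -0.14 to 0.42. Tcap, a cap of the giant protein titin, had groups apart at the top of the signal range, at 14.36 to 14.72 on the control arrays and 13.98 to 14.29 on the doxorubicin arrays (-0.38 ± 0.13, adjusted p = 0.233). Csrp3, a Z-disc protein, read 14.60 to 14.81 against 14.29 to 14.79 (-0.28 ± 0.11, adjusted p = 0.281). The fetal myosin Myh7 differed by 0.45 ± 0.22 (adjusted p = 0.441), and the median over 9 natriuretic peptide and fetal genes was 0.08, or -0.14 under the series matrix names.

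Genes of strained heart muscle varied widely. Ankrd1 (0.22 ± 0.14), Xirp2 (0.29 ± 0.25) and Nppb (-0.83 ± 0.59) did not pass the test. Nppb, a natriuretic peptide of strained heart muscle, ranged from 9.48 to 13.38 within the doxorubicin group alone.

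Genes of electrical and calcium handling leaned downward. Of 16 calcium handling genes 15 had a negative difference (median -0.14), and of 17 potassium and sodium channel genes 14 did (median -0.18). The calcium list's median was -0.08 and -0.02 on doxorubicin replicates 2 and 5, no lower than on the control arrays (-0.08 to 0.06). For the channels it ran from -0.43 to -0.15 on the doxorubicin arrays and from -0.12 to 0.11 on the control arrays. No gene of either list was called. The 3 channel genes with a positive difference reached up to 0.80. Kcnj8, a subunit of the ATP-sensitive potassium channel, read 8.74, 8.55, 8.56, 8.74 and 8.75 on the control arrays and 8.24, 8.31, 8.12, 8.08 and 8.40 on the doxorubicin arrays (-0.44 ± 0.09, adjusted p = 0.0618) with groups apart. Kcnd2 and Kcnip2, the pore and the partner of the transient outward current, read 8.65 to 9.72 against 8.08 to 8.78 (-0.78 ± 0.23, adjusted p = 0.179) and 6.40 to 7.29 against 5.90 to 6.63 (-0.66 ± 0.20, adjusted p = 0.187). Kcnh2, a channel of repolarisation, differed by -0.48 ± 0.15 (adjusted p = 0.191).

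The sodium-calcium exchanger gene Slc8a1 read 12.19, 12.13, 12.15, 12.27 and 12.29 on the control arrays and 11.78, 12.23, 11.64, 11.72 and 12.02 on the doxorubicin arrays (-0.32 ± 0.13, adjusted p = 0.333). Doxorubicin replicate 2 lay inside the control range for Slc8a1, for the kinase gene Camk2b (-0.38 ± 0.14, adjusted p = 0.283) and for Asph (-0.38 ± 0.15, adjusted p = 0.31). The medians of both lists were -0.06 and -0.05 under the series matrix names. With median scaling they were -0.02 and -0.02, and after the all-gene median was taken off -0.15 and -0.15.

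Signalling lists around the muscle cell held few calls. Prkg1 was the 1 called gene among 16 of cGMP and adrenergic signalling (median -0.01), where Grk5, a kinase of adrenergic receptors, stood at 0.36 ± 0.15 (adjusted p = 0.325). The share called lower over all tested genes was 0.0768%. Over 19 genes of IGF1, insulin and mTOR signalling the median was 0.04. Igf2 had groups apart (10.18 to 10.44 against 9.86 to 10.15, -0.32 ± 0.10, adjusted p = 0.178), and Igf1r and Igf1 stood at -0.35 ± 0.13 and -0.50 ± 0.21 (adjusted p = 0.281 and 0.326). Over 11 atrophy genes the median was 0.07, with the ubiquitin ligase gene Fbxo32 at 0.17 ± 0.17 (adjusted p = 0.743).

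Fuel metabolism had medians at or near 0, of 0 over 26 fatty acid genes, 0.01 over 24 glucose genes, -0.07 over 20 genes of mitochondrial biogenesis, -0.05 over 13 lipid synthesis genes and -0.02 over 12 amino acid genes. The glucose transporter gene Slc2a4 read 10.49, 9.90, 10.25, 10.24 and 10.46 on the control arrays and 9.45, 10.44, 8.96, 9.56 and 9.30 on the doxorubicin arrays (-0.73 ± 0.23, adjusted p = 0.215), and the array above the controls' median was again doxorubicin replicate 2. Psat1, an enzyme of serine synthesis, had groups apart (6.08 to 6.49 against 6.67 to 7.68, 0.77 ± 0.22, adjusted p = 0.174). Ucp3, a mitochondrial carrier, stood at -0.80 ± 0.41 (adjusted p = 0.455).

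Peroxide and electrophile defence leaned upward by small amounts. Of 25 tested genes of NRF2, glutathione and peroxide defence 22 had a positive difference (median 0.12), 1 was called (Gpx3) and 3 had groups apart on the higher side. Over all tested genes these shares were 0.163% called higher and 1.47% apart. Mgst1, a membrane glutathione transferase, read 10.41, 10.09, 9.93, 10.07 and 9.63 on the control arrays and 11.04, 9.80, 11.03, 11.05 and 10.66 on the doxorubicin arrays (0.69 ± 0.23, adjusted p = 0.234). Nqo1, a quinone reductase that can act on doxorubicin, read 8.34 to 8.89 against 8.74 to 9.18 (0.37 ± 0.13, adjusted p = 0.244), and Gstm1 10.25 to 10.54 against 10.49 to 11.00 (0.36 ± 0.14, adjusted p = 0.291). Under the series matrix names the list's median was 0.

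Iron genes had a median of 0.03 over 18 tested members, which ran from -1.40 to 0.56. Tfrc, the transferrin receptor through which cells take up iron, read 11.02, 11.00, 11.06, 10.38 and 10.66 on the control arrays and 8.42, 11.41, 8.04, 9.51 and 9.75 on the doxorubicin arrays (-1.40 ± 0.49, adjusted p = 0.246). Doxorubicin replicate 2 had the highest Tfrc of all 10 arrays, while the other 4 doxorubicin arrays lay below every control. Alas1, the first enzyme of haem synthesis, read 13.17 to 13.37 in controls and 12.45 to 13.33 after doxorubicin, with replicate 2 alone inside the control range (-0.35 ± 0.15, adjusted p = 0.347).

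Protein quality control showed small differences of both signs. The medians were 0.09 over 17 chaperone genes, -0.09 over 20 genes of ATF4 and the unfolded protein response, 0.11 over 20 autophagy and lysosome genes, 0.05 over 22 proteasome genes, 0.04 over 25 ribosomal protein genes and 0.02 over 17 genes of ribosome biogenesis. Bag3, a co-chaperone of muscle, had groups apart (13.08 to 13.30 against 13.32 to 13.50, 0.24 ± 0.08, adjusted p = 0.231). Psmb2 and Psmd4, proteasome subunits, had groups apart in opposite directions (-0.27 ± 0.09 and 0.21 ± 0.08, adjusted p = 0.208 and 0.259). Rps19 had groups apart (0.23 ± 0.09, adjusted p = 0.283), and Sqstm1, an autophagy receptor, stood at 0.37 ± 0.15 (adjusted p = 0.315).

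Matrix and developmental signalling held Mmp3 and Dnaaf3 as the called genes. Over 30 collagen and matrix genes the median was -0.08. Mmp2, a gelatinase, had groups apart (10.49 to 10.80 against 10.88 to 11.34, 0.53 ± 0.15, adjusted p = 0.158), and Timp4 and Ccn2 stood at 0.96 ± 0.30 and 0.70 ± 0.25 (adjusted p = 0.209 and 0.247). Over 24 genes of TGF-beta, activin and BMP signalling the median was -0.02, with the smallest p-values for Tgfbr1 (-0.21 ± 0.09, adjusted p = 0.368) and Tgfb1 (-0.52 ± 0.25, adjusted p = 0.412). Over 19 genes of Notch, Wnt and Hippo signalling it was -0.01, and Hes1, a Notch target, and Axin2, a Wnt target, had groups apart in opposite directions (-0.46 ± 0.13 and 0.37 ± 0.16, adjusted p = 0.175 and 0.363).

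Of 16 tested cilia genes 1 was called, Dnaaf3, and the others ran up to 0.36 with a median of 0.05 over the list. Over all tested genes 0.0768% were called lower. Bbs2 had the highest difference (0.36 ± 0.23, adjusted p = 0.564).

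Stromal markers leaned downward and red cell markers varied. Of 13 tested fibroblast markers 12 had a negative difference (median -0.16), 1 was called (Prrx1), and the summed signal ran from 17371 to 20657 on the control arrays and from 15968 to 17523 on the doxorubicin arrays, with Postn detected on no array. The fibroblast median was 0.18 on doxorubicin replicate 2, above every control array (-0.13 to 0.16). All 12 tested smooth muscle and pericyte markers had a negative difference (median -0.18), with sums of 26093 to 32504 and 21282 to 30230 and Cnn1 detected on no array. The smooth muscle median was -0.05 and 0 on doxorubicin replicates 2 and 5, inside the control range of -0.14 to 0.18. The fall was thus not shared by all doxorubicin arrays. Over all tested genes 0.0768% were called lower. Blood vessel endothelium had a median of -0.02 over 14 tested markers of 15, with sums of 23543 to 26719 and 23603 to 26962 and Kdr detected on no array.

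Of 8 erythroid and platelet markers 5 had a negative difference (median -0.26). The haemoglobin gene Hba-a1 read 14.25, 13.67, 13.86, 13.82 and 13.94 on the control arrays and 13.13, 14.16, 12.88, 13.39 and 13.29 on the doxorubicin arrays (-0.54 ± 0.22, adjusted p = 0.324), and the sums of the list ran from 14090 to 20944 in controls and from 8587 to 19859 after doxorubicin. On doxorubicin replicate 2 the list's median was 0.25, above every control array. Whether blood content plays a part in the differences above was not tested. The medians were -0.21 over 5 neural markers, 0.03 over 4 atrial markers, 0.11 over 7 lymphatic markers and -0.16 over 5 skeletal muscle markers. Summed atrial signals ran from 9796 to 12816 in controls and from 8801 to 19844 after doxorubicin. For skeletal muscle the sums ran from 10799 to 15266 and from 9531 to 25637.

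**Figure D4:**
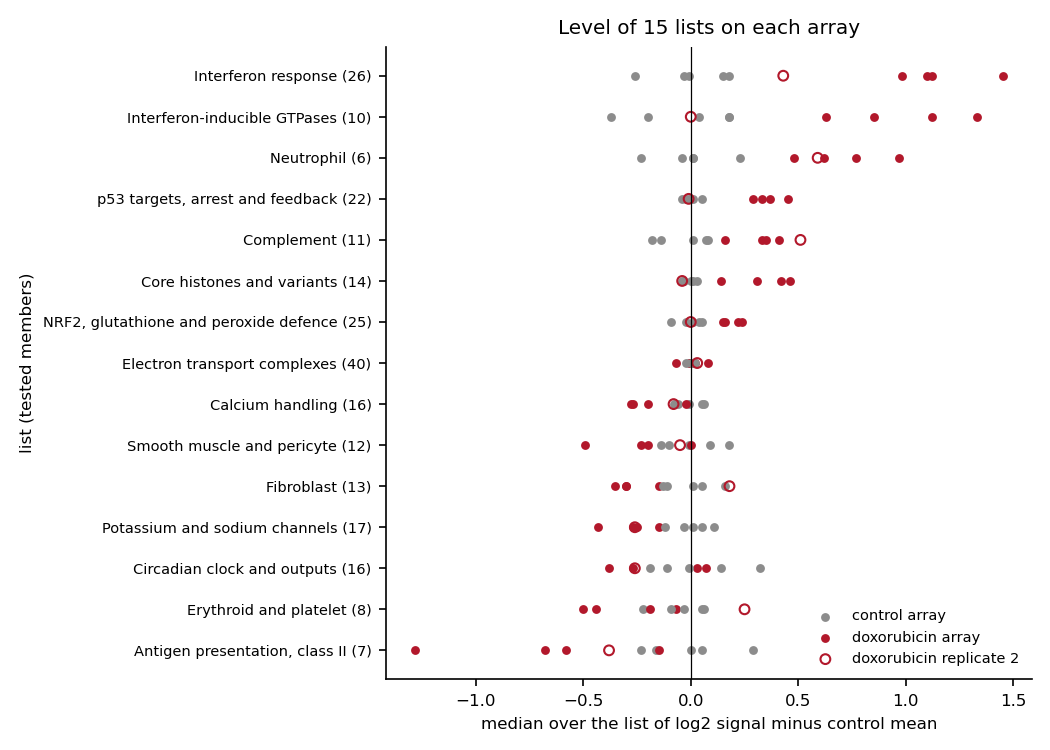
Each row is 1 of 15 lists and each point 1 array, placed by the median over the list's tested genes of the log2 signal minus the control mean (x axis). Grey points are control arrays, filled red points doxorubicin arrays and the open circle doxorubicin replicate 2, which stands at 0.43 for the interferon response against 0.98 to 1.45 for the other 4 doxorubicin arrays and within the controls for p53 arrest targets.

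The spread within the doxorubicin group was not even. Over the 17 called rises the median difference from the control mean was 1.36, 0.68, 1.49, 1.09 and 1.11 on doxorubicin replicates 1 to 5, and over the 8 called falls -0.99, -0.59, -0.86, -0.90 and -0.65. A share of 41.7% of genes on replicate 2 lay outside the range of 4 control arrays, against 44.5% to 54% on the other doxorubicin arrays and 36.7% to 43% for each control array set against the other 4. Its raw median signal of 136.3 was the highest of the 10 arrays, and its 17108 detected probes lay within the range of the others. Among the doxorubicin arrays it had the highest list medians for fibroblast (0.18), atrial (0.29) and erythroid and platelet markers (0.25). The part of signal, of RNA quality, of tissue make-up and of the injection in its values was not tested. By the series matrix it is a doxorubicin array as well.

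Without doxorubicin replicate 2 the fit called 191 genes higher (1.83%) and 141 lower (1.35%), among them all 25, while leaving out any other array gave 3 to 42 calls. That this array stood apart was known before it was left out, so these counts are a description and add no support. Of the genes called only then, 274 had groups apart on the remaining arrays and a named symbol. Replicate 2 lay inside the control range in 94 of the 156 that were higher and 63 of the 118 that were lower.

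Among the largest of the 156 were interferon and p53 genes already described, together with Gcnt1, a glycosyltransferase that branches O-glycans. Gcnt1 read 6.62, 6.25, 6.55, 6.37 and 6.74 on the control arrays and 8.34, 6.76, 9.38, 7.65 and 8.04 on the doxorubicin arrays (1.53 ± 0.37, adjusted p = 0.125, 1.85 ± 0.31 without replicate 2). Gtse1, which regulates p53 and microtubules, was detected on no control array and on 4 doxorubicin arrays, at least 1.61-fold higher on the probe used. Its 2 other passing probes stood at -0.04 and 0.35 (adjusted p = 0.942 and 0.488 over all passing probes), so the probes disagree. The 10 with the largest difference were Ccl12, Gcnt1, Ifit3, Irf7, Phlda3, Ifi47, Ifit2, Isg15, Gtse1 and Mx2, at 1.38 to 2.00 without replicate 2.

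The 10 largest of the 118 are named here. Akap5, an anchor of protein kinase A at the membrane, read 7.09, 7.28, 7.46, 6.41 and 6.89 on the control arrays and 5.24, 7.16, 5.07, 5.41 and 5.59 on the doxorubicin arrays (-1.33 ± 0.33, adjusted p = 0.127, -1.70 ± 0.19 without replicate 2). Hr, a corepressor of nuclear receptors, read 10.57, 10.63, 10.15, 10.40 and 10.49 on the control arrays and 8.99, 10.72, 8.17, 9.26 and 9.24 on the doxorubicin arrays (-1.17 ± 0.34, adjusted p = 0.176, -1.53 ± 0.23 without it). Kit, the stem cell factor receptor, read 8.17, 8.11, 7.86, 7.61 and 8.03 on the control arrays and 6.59, 8.09, 6.51, 6.90 and 7.18 on the doxorubicin arrays (-0.90 ± 0.26, adjusted p = 0.175, -1.16 ± 0.19 without it). In all 3, replicate 2 lay among the controls or above them.

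Aplnr, the receptor of the heart-active peptide apelin, read 10.61, 10.49, 10.51, 10.43 and 10.23 on the control arrays and 9.23, 10.56, 8.43, 9.75 and 10.06 on the doxorubicin arrays (-0.85 ± 0.29, adjusted p = 0.239), and Fscn1, an actin-bundling protein, read 8.94, 8.64, 8.29, 8.35 and 8.39 on the control arrays and 7.47, 9.33, 7.20, 7.68 and 7.39 on the doxorubicin arrays (-0.71 ± 0.32, adjusted p = 0.392). The remaining genes of this set were Tfrc, Cux2, Itgb6, Srrm4 and Abhd1, at -1.12 to -1.89 without replicate 2.

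**Figure D5:**
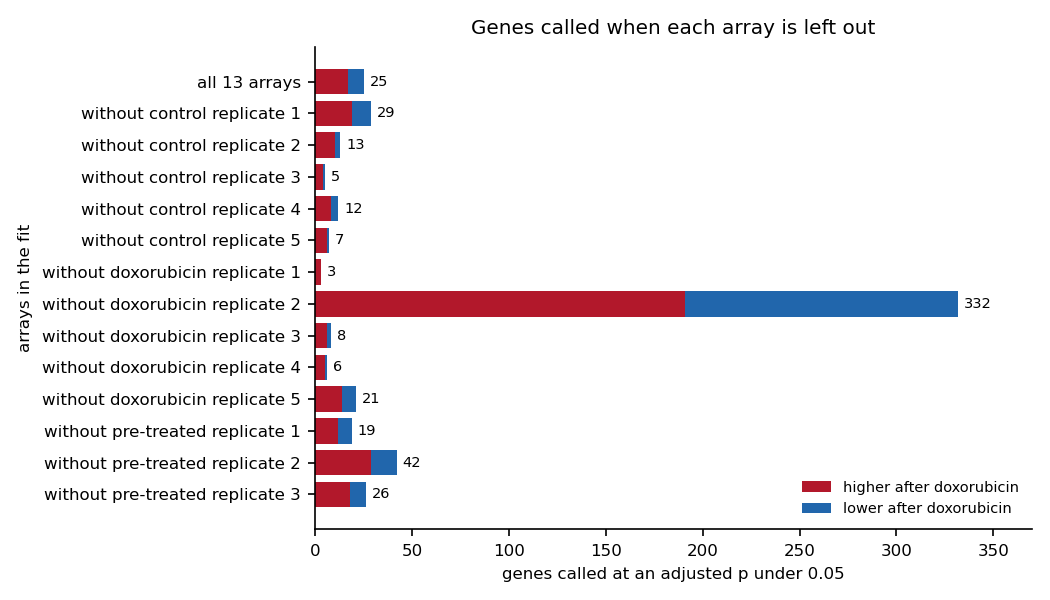
Each bar is the number of genes called at an adjusted p under 0.05 (x axis), higher in red and lower in blue, with all 13 arrays and with each array left out of the fit in turn. The bar without doxorubicin replicate 2 reaches 332, while the others lie between 3 and 42.

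Bright genes with groups apart gave the differences least limited by signal. In the brightest class 101 genes had groups apart. The largest rises among them, beside Cdkn1a, Ifit3, Oasl2 and Ifitm1, were Parp14, an ADP-ribosyltransferase of the interferon response, and Ly6e, a membrane-anchored interferon-induced protein. Parp14 read 9.10, 9.21, 8.92, 9.10 and 9.01 on the control arrays and 9.89, 9.27, 10.29, 9.99 and 10.31 on the doxorubicin arrays (0.88 ± 0.17, adjusted p = 0.0554), and Ly6e read 11.17, 11.04, 10.89, 10.91 and 10.79 on the control arrays and 11.96, 11.67, 11.83, 11.89 and 11.23 on the doxorubicin arrays (0.76 ± 0.15, adjusted p = 0.0563). Neither passed the test over all genes with all arrays in the fit.

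Among the bright genes with groups apart the largest falls were Dbp, Ttll1, Fblim1, Fgf13, Igsf1 and Phlda1. Ttll1, a ligase that adds glutamate chains to tubulin, read 10.04, 9.94, 10.36, 10.37 and 10.10 on the control arrays and 9.11, 9.73, 8.83, 9.23 and 9.54 on the doxorubicin arrays (-0.88 ± 0.17, adjusted p = 0.0583). Fblim1, which links filamin to cell adhesions, read 12.19, 12.31, 12.37, 12.35 and 12.35 on the control arrays and 11.28, 12.13, 10.85, 11.60 and 11.77 on the doxorubicin arrays (-0.79 ± 0.19, adjusted p = 0.128), with controls spread by an SD of 0.07 and the doxorubicin arrays by 0.49. Fgf13, an intracellular growth factor homolog that binds sodium channels, read 10.78, 10.88, 10.82, 11.42 and 11.52 on the control arrays and 10.45, 10.51, 9.96, 10.16 and 10.62 on the doxorubicin arrays (-0.74 ± 0.19, adjusted p = 0.143). Igsf1 and Phlda1 stood at -0.64 ± 0.14 and -0.60 ± 0.22 (adjusted p = 0.0853 and 0.265), and the other probes of Igsf1 at -0.09 and -0.58. None of these 6 falls passed the test over all genes.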

How the data were processed

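The authors deposited bead intensities with a detection p-value for each probe and array in a table that was not normalized, and a series matrix of processed intensities. The labels do not state how the latter were made. From the values, they are linear (as negative values show), and column medians of 6.8 or 6.9 and equal maxima point to quantile normalization. They were floored at 1 and used on the log2 scale as an alternative. The analysis started from the deposited intensity values. With limma 3.58.1 in R 4.3.3, neqc corrected the background from the detection p-values, added an offset of 16, normalized quantiles and took log2 over all 13 arrays. Probes detected at p under 0.05 on at least 3 arrays were kept (18693 of 45281), named by the platform annotation (34885 probes with 1 symbol, 18 with several and 10378 unnamed), and the probe with the highest mean signal stood for each gene. A linear model over the 3 groups with empirical Bayes gave the difference between doxorubicin and control, adjusted by Benjamini-Hochberg over 10410 genes. Errors are standard errors unless named SD. A probe detected on no array of a group gives a lower bound, "at least", from the lowest detected signal on each array.

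The comparison, the 42 gene lists and the 16 marker lists were chosen with earlier results of these data known. Named genes are all called genes, the 10 largest rises and falls among genes called only without doxorubicin replicate 2, the 6 largest each way in the brightest class of 4 by mean signal with groups apart, and up to 4 of each list by smallest p. Scripts were tested on simulated data, and promoters were searched with Python 3.11.15.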

Additional observations from a re-analysis of the deposited data

Results flagged for a closer look

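Of 256 groups of 5 arrays tested over the named genes, 10 (3.91%) held an array far from the other 4, by a gap that exceeded 0.71 of the group's range. Chance alone flags about 1 in 20 groups. Doxorubicin replicate 2 was that array in 5 of the 10. Abhd1, Akap5, Fscn1 and Mx2 were named because they were called only without it. Their flags follow in part from that choice and add no support. Doxorubicin replicate 2 read 6.77 for Abhd1 where the other doxorubicin arrays read 5.60 to 5.88, 7.16 for Akap5 against 5.07 to 5.59, and 9.33 for Fscn1 against 7.20 to 7.68. It read 6.01 for Mx2 against 7.12 to 7.39, and 8.88 for Prkg1 against 8.62 to 8.68.

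Control arrays stood apart in the other 5. Control replicate 1 read 8.40 for Camk2b against 8.02 to 8.12 and 9.37 for Ccl9 against 8.26 to 8.46. Control replicate 2 read 5.82 for Axin2 against 6.51 to 6.70. Control replicate 3 read 8.61 for Ifit3 against 9.45 to 9.76 and 6.52 for Igf1 against 7.19 to 7.31.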

How the results depend on the processing

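Against 25 called genes (17 higher, 8 lower), array quality weights gave 161 (94 and 67), no background correction 43 (29 and 14), an offset of 50 gave 45 (30 and 15), trended and robust variances 39 (26 and 13), and every passing probe on its own 26 higher. Median scaling gave 34 higher and 1 lower, with 66 genes whose groups did not overlap in place of 297. With the replicate number as a block 4 genes were called (3 and 1), although same-numbered samples deviated together with correlations of 0.13, 0.05, 0.26, -0.15 and 0.39 and the numbers were not taken as pairs. Series matrix names gave 0 called, 0 higher and 0 lower with 25 genes whose groups did not overlap, and the series matrix values gave the same 4 numbers. The arrays grouped alike by both tables gave 0 called and 1285 genes whose groups did not overlap, with 3 arrays a group. In limma these 3 settings had 164, 178 and 732 genes at an unadjusted p under 0.05. Fits without each array in turn gave 3 to 332 called genes, 3 to 191 higher, 0 to 141 lower and 297 to 909 whose groups did not overlap. The lowest count, 3, came without doxorubicin replicate 1 and the highest, 332, without doxorubicin replicate 2. Without control replicates 2 to 5 the counts were 13, 5, 12 and 7, without doxorubicin replicates 3 and 4 they were 8 and 6, and without the second pre-treated array 42. S100a8, S100a9 and Cdkn1a were called in all 13 fits that left out an array.

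Among named genes none of the 25 called reversed. With median scaling Ifi27 stood at 0.01 and Zbp1 at 0.04, or at -0.12 and -0.09 after the all-gene median was taken off. Under the series matrix names, Aen stood at -0.05, Ankrd1 at -0.15, Icam1 at -0.08, Nr1d1 at 0.14, Psmb9 at -0.03, Slc8a1 at 0.04, Tcap at 0.07, Tgfbr1 at 0.01 and Xirp2 at -0.01, each with its sign turned. On the series matrix values the same 9 genes turned, with Aen at -0.03, Nr1d1 at 0.15 and the other 7 as under the names. The cause was not tested. The control SD was larger in dim genes than in bright ones.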
